A study of Mus musculus with 6 samples.

Results

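The suppressor of cytokine signalling (SOCS) family and the Pim kinases are genes that cytokines switch on and that then act back on cytokine signalling. A set of 10 genes was taken by name, namely Socs1, Socs2, Socs3, Socs4, Socs5, Socs6, Socs7, Cish, Pim1 and Pim2. A probe set, the group of probes that reads 1 transcript, was included when the platform annotation gave it 1 of these symbols. This yielded 27 of the 45101 probe sets on the array, and each of the 10 genes had at least 1. Marrow cells came from healthy C57BL/6 mice and were transfected in culture with the GeneSilencer reagent, the control group with a control oligonucleotide and the mimic group with a synthetic mimic of miR-142-3p, each at 100 nM. Both groups then received GM-CSF and IL-6 after 5 h and were kept for 4 days, conditions under which marrow gives rise to myeloid-derived suppressor cells, an immature population known for holding back T cells. Each group holds 3 Affymetrix MOE430 2.0 arrays, and the labels state neither the age of the mice nor whether replicate arrays had separate cultures or donors. The p-values therefore reflect the spread between these arrays alone, which may be technical. In a bulk culture, fewer cells of a type and less RNA per cell cannot be told apart.

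Cytokine receptors of this class work through JAK kinases, which phosphorylate STAT transcription factors that move to the nucleus. Among the genes that STATs switch on are Cish and several SOCS genes, whose proteins carry an SH2 domain that binds phosphorylated receptors or kinases and a SOCS box that recruits a ubiquitin ligase. SOCS3 is the main brake on IL-6 signalling through the gp130 receptor, CISH and SOCS2 act on receptors that use STAT5, and SOCS1 restrains interferon signalling. PIM1 and PIM2 are serine/threonine kinases that favour survival and growth, and their genes are also cytokine-induced. They are active as soon as they are made, so their level is set largely by their expression and turnover.

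A microRNA and 3 promoter stretches frame the comparison. The mature miR-142-3p (RefSeq, GRCm38.p6, chr11:87756903-87756925, plus strand) is the microRNA that the mimic copies, and its seed, bases 2 to 8, is in capitals. The other 3 come from the RefSeq table of windows that run from 250 bases before to 50 bases after a listed transcript start, with the cytokine motifs that a search found in capitals.
mmu-miR-142a-3p: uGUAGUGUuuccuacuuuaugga
Socs3: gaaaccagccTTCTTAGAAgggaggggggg
Cish: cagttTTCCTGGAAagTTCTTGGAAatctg
Socs1: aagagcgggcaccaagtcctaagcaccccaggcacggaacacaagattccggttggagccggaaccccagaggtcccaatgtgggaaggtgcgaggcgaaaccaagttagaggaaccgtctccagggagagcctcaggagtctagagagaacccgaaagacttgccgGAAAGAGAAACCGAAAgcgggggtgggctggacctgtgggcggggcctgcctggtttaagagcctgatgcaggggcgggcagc

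The Socs3 stretch lies at chr11:117969501-117969530 (minus strand), that of Cish at chr9:107296654-107296683 (plus strand) and that of Socs1 at chr16:10785537-10785786 (minus strand), all in GRCm38.p6. The capitals in Socs3 and Cish are the STAT motif known as GAS, searched as TTCNNNGAA, which reads the same on both strands. Socs3 held 1 match, at positions -154 to -146 from the listed start, and Cish held 2, at bases 1 to 9 and 12 to 20 of the listed transcript. The capitals in Socs1 are 2 overlapping matches to the interferon-response motif ISRE, searched on both strands as GAAA, any 2 bases and GAAA. GAS was present in 8.3% and ISRE in 3.44% of all 32851 windows. Of the 10 genes, 6 had a window in the table, and the windows of Socs4, Pim1 and Pim2 held neither motif. A match describes the letters only, and binding was not measured.

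Levels are deposited log2 values, and a difference is the mimic mean minus the control mean, fitted with limma across all 18193 genes, each read through its brightest probe set. Across the 10 genes, 0 rose and 0 fell at an adjusted p under 0.05 (Benjamini-Hochberg), against 2.76% of all genes. At an unadjusted p under 0.05 by limma there were 2, Socs2 and Socs3, both with lower means under the mimic, where 17% of all genes lie under that p. The median log2 fold change of the 10 was -0.11, beside 0.01 over all genes tested, with 8 means lower and 2 higher. In 3 of the 10 (Socs2, Socs3 and Cish) every mimic array lay below every control array, a separation that 11.1% of all genes show in this direction. For 7 genes (Cish, Pim1, Pim2, Socs4, Socs5, Socs6 and Socs7) the 95% interval lay wholly within a 1.5-fold change either way, as it did for 77.2% of all genes. This covers the brightest probe set of each gene only. In a fit of all probe sets, dimmer ones of Pim1, Socs4, Socs5 and Socs7 had 95% intervals that reached beyond a 1.5-fold change. That of 1423006_at of Pim1 ran from -1.03 to -0.55 on the log2 scale.

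**Figure D1:**
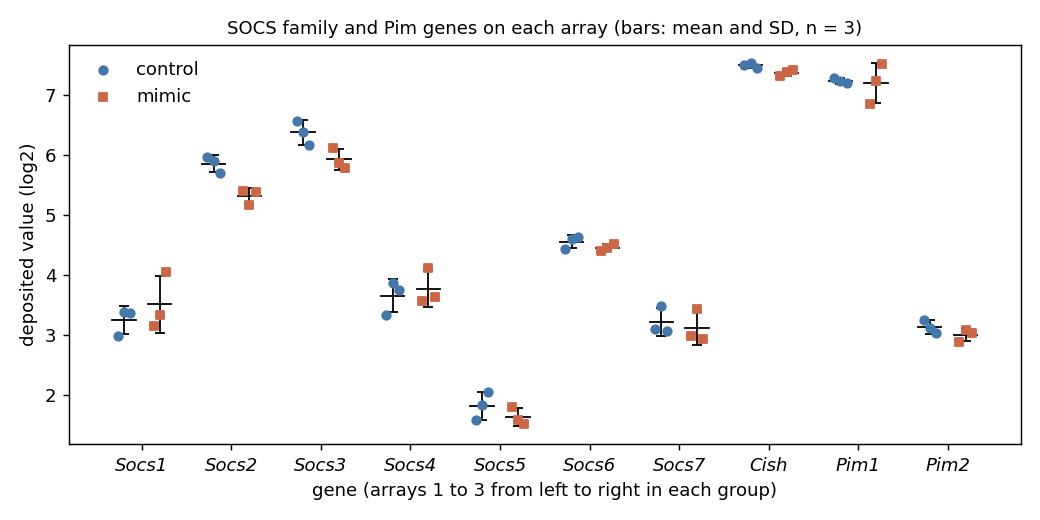
Deposited log2 value of each SOCS and Pim gene (x axis) on each array, read through its brightest probe set, for control (circles) and mimic (squares) arrays, with the mean and SD of 3 arrays. The groups stand apart for Socs2, Socs3 and Cish, and the mimic arrays of Pim1 spread from 6.84 to 7.51.

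Socs2 (NCBI Gene 216233), whose protein limits growth hormone and other STAT5 signals, came nearest to the threshold. Its brightest probe set read 5.96, 5.90 and 5.69 in the controls and 5.40, 5.16 and 5.37 with the mimic, in the order of arrays 1, 2 and 3 as throughout. The lowest control array thus stood above the highest mimic array. The log2 fold change was -0.54 ± 0.11 (SE), or 1.46-fold lower, with an adjusted p of 0.0536 by limma and a 95% interval from -0.81 to -0.28. The call sits at the threshold. It passed with a trended robust variance (adjusted p = 0.0283 by limma), with arrays centred on their medians (0.0418), with array weights (0.0313) and with only genes at or above a mean log2 of 3 or 5 tested (0.0279 and 0.0165). It did not pass with any single array left out (adjusted p from 0.0574 to 0.191). Nor did it pass with a replicate block (0.105 by limma) or after further quantile normalisation (0.0563). With genes read through the probe set of largest interquartile range its adjusted p was 0.0676. In the fit of all probe sets the same probe set had an adjusted p of 0.0917 by limma.

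A second bright probe set of Socs2, 1418507_s_at, read 5.44, 5.60 and 5.15 in control and 4.91, 5.08 and 4.80 with the mimic. These groups were apart as well, in the same direction. Its log2 fold change in the fit of all probe sets was -0.46 ± 0.14 (adjusted p = 0.2 by limma). The other 4 probe sets of Socs2 had means from 0.1 to 1.1 on the log2 scale, near the bottom of the array, where 52.6% of all values lie below 1. Of those 4, 2 had lower and 2 had higher means with the mimic. With all 6 probe sets averaged, the log2 fold change of Socs2 shrank to -0.18 (adjusted p = 0.353 by limma).

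Socs3 (NCBI Gene 12702), the brake on gp130, had 3 probe sets, and all 3 means were lower with the mimic. The brightest, 1455899_x_at, read 6.57, 6.38 and 6.16 in control and 6.11, 5.87 and 5.78 with the mimic, so the groups were apart by a narrow margin. Its difference was -0.45 ± 0.14 on the log2 scale (adjusted p = 0.144 by limma), with a 95% interval from -0.76 to -0.13. The suffix of this probe set marks probes that can also match other sequences. The dimmest, 1416576_at, carries no such mark and read 5.34, 4.63 and 4.27 in the control arrays against 3.68, 3.75 and 3.75 with the mimic. Here the mimic arrays agreed closely and the control arrays were uneven, control array 1 being highest. In the fit of all probe sets its log2 fold change was -1.02 ± 0.25, or 2.03-fold lower (adjusted p = 0.127 by limma), and without control array 1 it was -0.72 (adjusted p = 0.0953). The third, 1456212_x_at, read 4.90, 5.28 and 5.13 against 4.95, 5.10 and 4.30, and its groups overlapped. The difference in response between the dimmest and the brightest probe set was -0.57 on the log2 scale (exact two-sided permutation p = 0.1, the smallest that 3 against 3 arrays allow).

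The dendritic cell markers moved in the same direction as Socs2 and Socs3, and their part in these values was not tested. Of 10 dendritic cell markers measured, 7 fell and 0 rose, and none had a mean log2 below 1. The 3 that did not pass were Ciita, Flt3 and Zbtb46 (adjusted p = 0.162, 0.101 and 0.354 by limma), each with a lower mean. The summed linear level of the 10 (2 to the power of each deposited value) ranged from 1472 to 3352 in control and from 592 to 612 with the mimic. Bright genes weigh most in this sum, and Cd74 was the brightest of the 10 (mean log2 10.24 in control and 8.58 with the mimic). Within the controls that sum was 3352, 1992 and 1472 in arrays 1, 2 and 3. The brightest probe sets of Socs2 and Socs3, and the dimmest of Socs3, were also highest in control array 1 and lowest in control array 3. Other probe sets of these genes did not all follow that order, since 1418507_s_at of Socs2 was highest in control array 2 and 1456212_x_at of Socs3 was lowest in control array 1. The bright Pim1 probe set and Pim2, whose groups overlapped, had that order too, and its share over all genes was not counted. Within the mimic arrays the sum was 592, 612 and 609. The brightest probe sets of Socs2 and Socs3 were highest in mimic array 1, and the dimmest of Socs3 was lowest there. Neutrophil precursor markers went the other way, with 2 of 6 measured risen, 0 fallen and sums from 2240 to 3834 in control and from 5843 to 5909 with the mimic.

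Cish (NCBI Gene 12700), a textbook target of STAT5 and so of GM-CSF, barely differed. It was read by 1 probe set, at 7.49, 7.53 and 7.44 in control and 7.31, 7.37 and 7.41 with the mimic. The arrays within each group lay close together and the groups did not overlap, yet the gap between the nearest arrays was small. The difference was -0.12 ± 0.09 on the log2 scale (adjusted p = 0.541 by limma), and its 95% interval ran from -0.32 to 0.08.

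Socs1 (NCBI Gene 12703), which restrains interferon signalling, had 1 probe set. It read 2.99, 3.39 and 3.38 in control and 3.15, 3.33 and 4.04 with the mimic. Mimic array 3 stood above the other 5 arrays, which overlapped. The mimic mean was 0.26 ± 0.23 higher on the log2 scale (adjusted p = 0.642 by limma), with a 95% interval from -0.28 to 0.79, and without mimic array 3 it was -0.0076.

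Socs4, Socs5, Socs6 and Socs7 encode the longer members of the family, of which SOCS4 and SOCS5 are linked to EGF receptor signalling and SOCS6 and SOCS7 to insulin and receptor tyrosine kinase signalling. Their brightest probe sets overlapped between the groups. Socs4 read from 3.34 to 3.87 in control and from 3.57 to 4.11 with the mimic (log2 fold change 0.11 ± 0.19, adjusted p = 0.82 by limma). All 4 of its probe sets had higher means with the mimic. In a dim one, 1421275_s_at, the mimic arrays (2.01, 2.32 and 1.85) stood above the controls (1.64, 1.52 and 1.74), without passing (0.43 ± 0.14, adjusted p = 0.234 by limma over all probe sets).

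Socs5 was dim throughout, at 1.59, 1.84 and 2.05 in control and 1.81, 1.59 and 1.52 with the mimic in its brighter probe set (log2 fold change -0.19 ± 0.14, adjusted p = 0.576 by limma). Its dimmer probe set, 1423350_at, lay below the control range in all 3 mimic arrays, at 1.30, 1.14 and 0.73 against 1.54, 1.67 and 1.57. It did not pass (-0.54 ± 0.15, adjusted p = 0.176 by limma over all probe sets). Socs6 read from 4.43 to 4.63 in control and from 4.40 to 4.51 with the mimic (-0.10 ± 0.10, adjusted p = 0.685). Socs7 read from 3.08 to 3.48 and from 2.93 to 3.43 (-0.10 ± 0.17, adjusted p = 0.825). Of the 3 probe sets of Socs6, 1 had a lower mean, and of the 4 of Socs7, 3 did.

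Pim1 (NCBI Gene 18712) gave 2 answers from 2 probe sets. The bright one, 1435458_at, read 7.28, 7.23 and 7.19 in control and 6.84, 7.22 and 7.51 with the mimic. The controls were tight, and the mimic arrays lay below, within and above them. The group means differed by -0.04 ± 0.16 on the log2 scale (adjusted p = 0.929 by limma), and it turned to 0.13 without mimic array 1. The dim one, 1423006_at, read 2.39, 2.46 and 2.56 in control and 1.69, 1.79 and 1.56 with the mimic, with a wide gap between the groups. Its log2 fold change was -0.79 ± 0.10, or 1.73-fold lower, and it fell at an adjusted p of 0.0274 by limma over all probe sets. It was the only one of the 27 probe sets to pass, where 0.897% of all probe sets did.

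That call was kept without control array 1 (adjusted p = 0.0458 by limma) and lost without control array 2 (0.173), control array 3 (0.0721), mimic array 1 (0.173), mimic array 2 (0.0976) or mimic array 3 (0.115), while the log2 fold change stayed between -0.85 and -0.73. The responses of the Pim1 probe sets differed by -0.75 on the log2 scale (exact two-sided permutation p = 0.1, the smallest possible here). The stretch of transcript that each probe set reads was not used here. Pim2 (NCBI Gene 18715) had 1 probe set, at 3.26, 3.11 and 3.04 in control and 2.89, 3.08 and 3.04 with the mimic. Its groups overlapped, and the difference was -0.13 ± 0.10 on the log2 scale (adjusted p = 0.591 by limma).

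**Figure D2:**
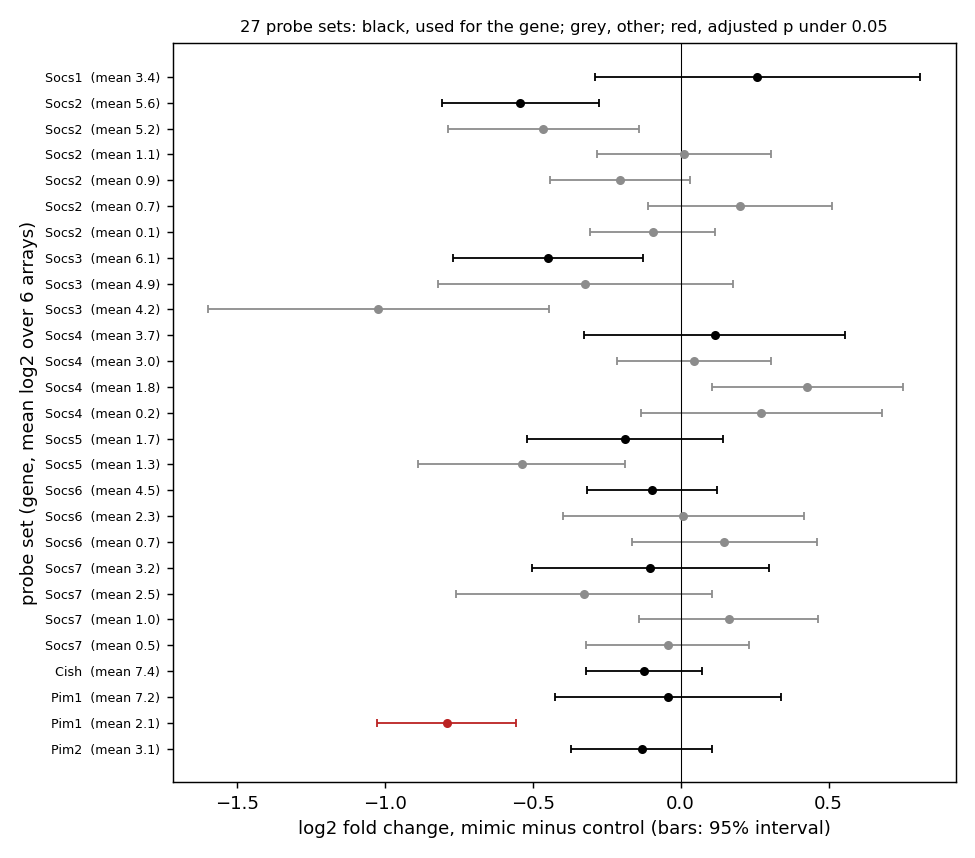
Log2 fold change (x axis, mimic minus control) with its 95% interval for each of the 27 probe sets (y axis, by gene and mean log2 over 6 arrays) in the fit of all probe sets. The dim Pim1 probe set at -0.79 passed the threshold, and all 3 Socs3 probe sets lie left of 0.

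Over the 27 probe sets, 17 means were lower with the mimic and 10 higher, with a median log2 fold change of -0.10 beside 0.0018 over all probe sets tested. The groups were apart in 8, of which 7 were lower and 1 higher with the mimic, where 8.9% and 8.62% of all probe sets were apart in these directions. The 7 were 2 of Socs2, 2 of Socs3 and 1 each of Socs5, Cish and Pim1. They are not independent, since probe sets of a gene read the same RNA. Of the 27, 6 had a mean log2 below 1 and 5 a mean of at least 5.

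**Figure D3:**
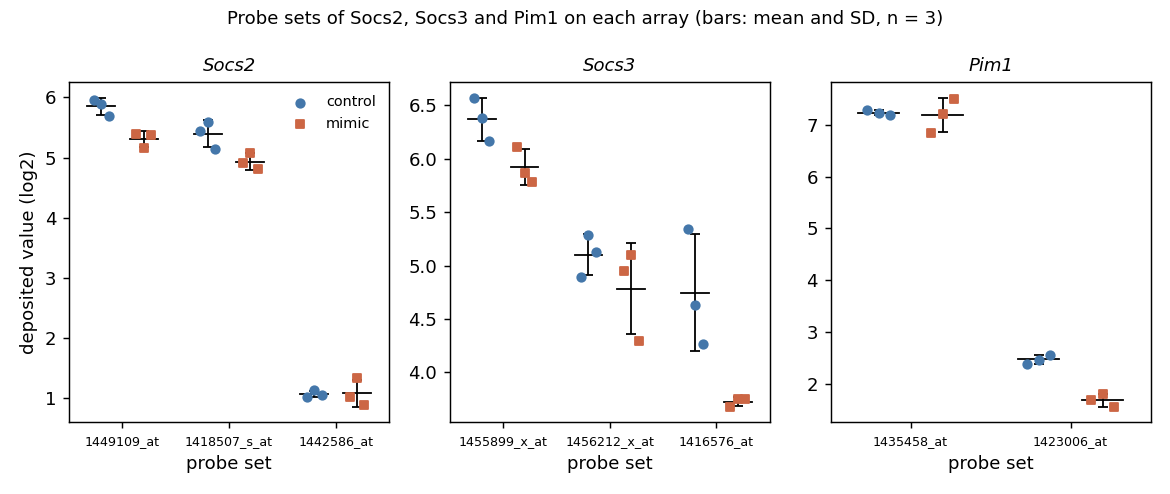
Deposited log2 value (y axis) of the probe sets of Socs2, Socs3 and Pim1 with a mean log2 of at least 1 on each control (circles) and mimic (squares) array, with the mean and SD of 3 arrays. In Pim1 the dim probe set separates the groups, and the bright one has mimic arrays on both sides of the controls.

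The genes upstream of these brakes were compared in the same fit. Of 18 measured cytokine receptor genes 4 fell and 0 rose (median log2 fold change -0.06), with 7 means higher and 11 lower. Il6st, which encodes gp130 and was named after its values were seen, came near the threshold in the higher direction. It went from 4.61 ± 0.14 to 5.13 ± 0.11 (SD, n = 3), or up by 0.52 ± 0.11 (adjusted p = 0.0526 by limma), and its groups were apart. Csf2rb2, the beta chain of the mouse IL-3 receptor, fell by 0.68 ± 0.11 on the log2 scale (adjusted p = 0.0218 by limma). Ifnar1, a chain of the type I interferon receptor, fell from 5.16 ± 0.12 to 4.54 ± 0.05 (SD, n = 3), or by 0.62 ± 0.10 (adjusted p = 0.0213 by limma). Csf2rb, the shared beta chain of the GM-CSF receptor, fell by 0.53 ± 0.11 (adjusted p = 0.048 by limma). Csf2ra, also named after its values were seen, fell by 0.49 ± 0.10 (adjusted p = 0.041). In the fit of all probe sets the same probe sets of Csf2rb2 and Ifnar1 passed (adjusted p = 0.0423 and 0.0411 by limma). Those of Csf2rb and Csf2ra did not (0.0823 and 0.0701). Of 10 measured JAK and STAT genes 1 fell and 0 rose (median -0.23). It was Jak1, at -0.75 ± 0.14 (adjusted p = 0.0373 by limma), of which another probe set, 1433803_at, had a log2 fold change of -0.04 ± 0.12. Over all probe sets the called Jak1 probe set did not pass (adjusted p = 0.0701 by limma).

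Other brakes and effectors of the pathway showed few calls. Of 13 other inhibitors of JAK-STAT signalling 1 rose and 0 fell (median -0.07). The riser was Usp18, an interferon-induced inhibitor of the type I interferon receptor, which went from 8.21 ± 0.32 to 9.32 ± 0.12 (SD, n = 3), or up by 1.11 ± 0.16 (adjusted p = 0.018 by limma). Of 10 genes of the SOCS box ligase and other SOCS box proteins 0 passed by limma and 1 did at an unadjusted p under 0.05 (median -0.05, with Wsb1 furthest from 0 at 0.57 ± 0.20, adjusted p = 0.206). Of 12 genes in the list of Pim3, Pim substrates and partners 0 rose and 1 fell, and the list median was 0.05. The faller was Cdkn1a, whose product p21 is a Pim substrate (-0.47 ± 0.09, adjusted p = 0.039 by limma). Over all probe sets this Cdkn1a probe set did not pass (adjusted p = 0.0672 by limma). Another, 1421679_a_at, overlapped between the groups (-0.55 ± 0.48). Pim3 is the remaining kinase of the family. Its brightest probe set, 1437100_x_at, bears the same suffix as the brightest of Socs3. This probe set read from 5.73 to 5.85 in control and from 5.70 to 5.83 with the mimic (-0.03 ± 0.09, adjusted p = 0.915 by limma). A dimmer one without that suffix, 1451069_at, read 3.79, 4.02 and 3.97 in control and 3.61, 3.68 and 3.38 with the mimic, so its groups were apart. This gap of -0.37 ± 0.11 did not pass over all probe sets (adjusted p = 0.217 by limma). The dimmest, 1438956_x_at, had a mean log2 of only 0.77 and was also lower with the mimic, at -0.27. Of 14 genes that respond to STAT3 and STAT5 0 passed by limma and 9 did at an unadjusted p under 0.05, against 17% of all genes (median -0.10, with Il2ra furthest from 0 at -0.82 ± 0.27, adjusted p = 0.174).

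Across all pathway lists, 17 of 88 measured genes passed, 11 higher and 6 lower with the mimic, and 43 did at an unadjusted p under 0.05. When mimic array 1, mimic array 3 or control array 2 was left out, 0 of the 88 passed by limma (35, 36 and 33 at an unadjusted p under 0.05), and without mimic array 2, 3 did. Over all genes the same omissions took the count from 503 to 0 by limma (2343, 2746 and 2564 at an unadjusted p under 0.05), and omitting mimic array 2 took it to 65.

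**Figure D4:**
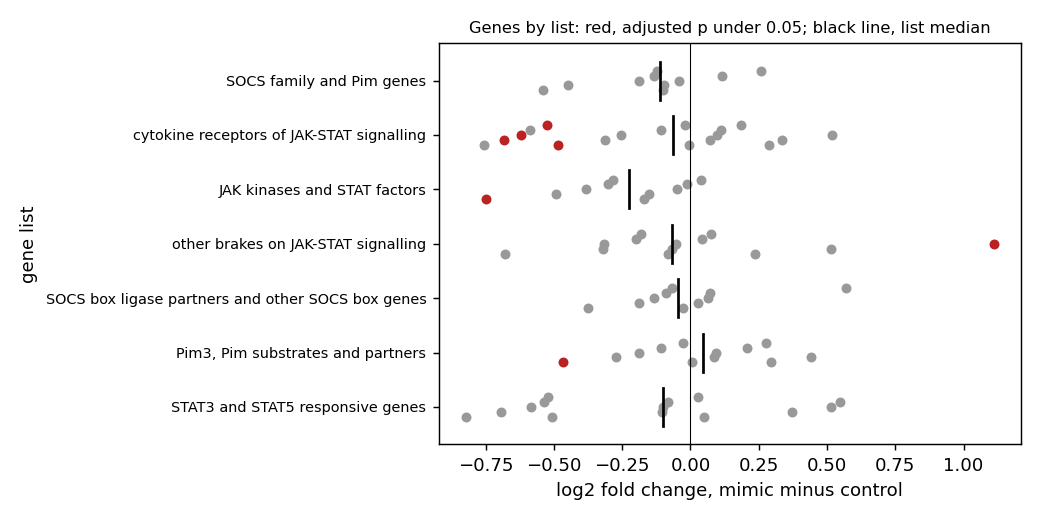
Log2 fold change (x axis, mimic minus control) of each measured gene in the SOCS and Pim group and in 6 pathway lists (y axis), with calls at an adjusted p under 0.05 in red and the list median as a black line. The SOCS and Pim genes straddle 0, at a median of -0.11, and the calls among the listed genes lie on both sides of it.

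Other genes with the same course over the 6 arrays were sought for Socs3, Cish and Pim1. Likeness was the root mean square difference between the deviations of 2 genes from their own means, over 4033 genes whose mean log2 was 5 or more. Nearest to Socs3 were Tmem50b, Mlf2 and Mark3, at 0.067, 0.070 and 0.070 log2 units, and 26 genes lay under 0.1. Nearest to Cish were the cyclin gene Ccnd3 at 0.021, Sec24c of the vesicle coat at 0.026 and Sgta at 0.029, but 808 genes lay under 0.1 of this nearly flat course. Nearest to Pim1 were Stxbp2 at 0.079, Igkv8-30 at 0.091 and the calpain inhibitor gene Cast at 0.095, and 5 genes lay under 0.1.

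Markers of myeloid cells were present in both groups. Of 7 measured, none had a mean log2 below 1, 3 fell and 0 rose. The integrin gene Itgam, which encodes CD11b, fell by 1.19 ± 0.17 on the log2 scale (adjusted p = 0.017 by limma), Csf1r by 0.57 ± 0.10 (adjusted p = 0.0292) and Lyz2 by 0.53 ± 0.09 (adjusted p = 0.0238). The 7 markers' summed linear level ranged from 11989 to 12397 in control and from 11374 to 11554 with the mimic. Among other cell types, B cell markers summed to 76.2 to 115 in control and 59.8 to 71.4 with the mimic, and T cell markers to 11.6 to 12.7 and 11.8 to 12.3. Mast cell and basophil markers summed to 285 to 529 and 668 to 752, megakaryocyte markers to 600 to 726 and 810 to 917, and erythroid markers to 2.89 to 4.19 and 3.34 to 4.17. The mature miR-142-3p was not measured on these arrays.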

How the data were processed

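The deposited table holds 1 log2 value per probe set and array. Per the submitters' processing notes RMA and affy are named, without version or role. Probe set definitions are not stated. The log base was taken from the values, whose maximum of 12.3 is above the 11.1 that natural logs of 16-bit intensities can reach. Centring and floor are not stated. Arrays were grouped by the treatment in the labels and numbered as in their titles. Of 45101 probe sets, 64 Affymetrix controls were left out. The 34945 with 1 symbol were renamed through gene identifiers to RefSeq (34741 matched) and gave 18193 genes, each read through the probe set with the highest mean. The mimic group was set against the control group in limma 3.58.1 under R 4.3.3 (lmFit, eBayes, two-sided, no covariate, n = 3 against 3), adjusted by Benjamini-Hochberg over all 18193 genes or over all 45037 probe sets. The fit was tested on simulated data. Alternatives were a replicate block, single arrays left out, other variance models, scalings, filters on dim genes and choices of probe set. Named genes were the 10 members, up to 3 called genes per pathway list (else the largest change) and 3 nearest patterns for Socs3, Cish and Pim1. The pathway counts over 88 genes include 1 further list that is not reported here. Members and lists were chosen with earlier results of these data known. The number of arrays limits the precision. Seed sites, protein sequences and probe positions were not used here.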

Additional observations from a re-analysis of the deposited data

How the results depend on the processing

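The number of SOCS and Pim genes past the threshold, 0 as reported, was 1 in 6 of 15 alternatives. Socs2 passed with median-centred arrays, with array weights, with a trended robust variance and with genes below a mean log2 of 3 or 5 left out, and Pim1 passed when genes were read through the probe set with the largest interquartile range. For Pim1 that was the dim 1423006_at, already called in the fit of all probe sets. A range taken over both groups favours probe sets that differ between them. The number of genes past the threshold was 0 in the other alternatives, including each single array left out (2 at an unadjusted p under 0.05 by limma in each). Socs2, Socs3, Socs5, Cish and Pim2 kept lower means with the mimic in every alternative in which they were tested. With single arrays left out, the log2 fold change ranged from -0.0076 to 0.44 for Socs1, from -0.055 to 0.22 for Socs4, from -0.26 to 0.029 for Socs7 and from -0.20 to 0.13 for Pim1. Socs4 turned to -0.038 with array weights, and Socs6 turned to 0.020 with probe sets averaged and to 0.0085 with the largest interquartile range. The cause of these turns was not tested. The labels do not state whether array numbers pair the samples. Deviations from the group means correlated at -0.10, 0.25 and -0.19 between same-numbered arrays, and not every array correlated best with its own number. These correlations cannot decide on pairing, since deviations from a mean of 3 arrays sum to 0 and so depend on one another. With the replicate block, 0 of 27 probe sets passed (7 at an unadjusted p under 0.05 by limma), the dim Pim1 probe set among them at an adjusted p of 0.0825, and 314 genes passed in all. Of the pathway calls, all 11 higher ones were kept with the block and 5 of the 6 lower ones (Ifnar1, Csf2rb, Csf2ra, Jak1 and Cdkn1a) were lost, at adjusted p from 0.0615 to 0.106 by limma, while Csf2rb2 was kept (0.047). With single arrays left out, 0 to 1 of the 27 probe sets, 0 to 15 pathway genes and 0 to 413 genes in all passed. Array weights gave 26 pathway genes and 1047 genes in all. Over all genes, 213 were higher and 290 lower as reported, and 322 and 290 after further quantile normalisation. Across genes the SE of the difference had a median of 0.12, and probe sets near the floor limit what can be seen.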
